A study of Mus musculus with 4 samples.

Results

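The expression of 62 genes of the cell cycle, mitosis and DNA replication was examined in mouse ES cells treated with inhibitors of FGFR, MEK or GSK, out of 25030 genes with a deposited value. Members were chosen by symbol alone: those that begin with Ccna to Ccnl, Cdkn, Cenp, Kif, Aurk, Pold or Pole, or with Cdk, Cdc, Mcm, E2f, Orc, Plk, Bub, Chek, Rfc, Rad or Anapc followed by a digit. The scanner files carry no gene names, and the supplementary tables held here name 5619 of the probes, so a cell cycle gene whose probe they do not name was not analysed here. Each of the 62 members was measured by 1 probe, and all were well above background in the ES cell channel on all 4 arrays.

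The way in which the probes came to be named matters for what follows. A table that ranks genes by their response to induced transcription factors, measured in a separate set of ES cell arrays, named 54 of the members. The rows held of that table name 1994 genes, in ascending order of that response, so these members belong to the genes that responded least in that other experiment. The remaining 8 members, Orc2l, Mcm6, Cdk5r2, Kif1a, Kif21b, Kif14, Cdc73 and Cenpl, lie on chromosome 1 and were named through a list in genome order.

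The cells were B6R(5), a male ES line of the C57BL/6 strain, grown without feeders on gelatin. At 24 hr after plating, 1 culture received DMSO alone (the control) and 1 each received the FGFR inhibitor PD173074 at 100 μM, the MEK inhibitor PD98059 at 25 μM or the GSK inhibitor BIO at 2 μM, with 0.2% DMSO in every culture. A supplementary list prints the same doses in mM. RNA was taken 48 hr later, labeled with Cy3 and hybridized to a 2-colour array together with a Cy5-labeled reference pooled from mouse cell lines, to which the methods of the study add RNA of MC1 cells. There was 1 array per condition, all 4 on the same slide, so no spread between replicates can be given and no test was made. All 3 comparisons use the same control array. In place of replicate error, each change is set beside 2 measures. The first is a robust SD, the spread of log2 fold changes in the same comparison among genes with about the same Cy3 signal, true changes included. The second is the error that the scanner software assigns to the 2 spots of a difference, here called the spot error.

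The identity of the cells could be checked with few markers. Of 15 pluripotency genes listed, the probes of 3 could be traced: Prdm14, Tcfcp2l1 and Gbx2 had log2 ratios of 2.20, 2.97 and 4.01 to the reference on the control array. Of 8 fibroblast genes, Col3a1 was at -7.19 and Fn1 at -1.72, and the endoderm gene Sox17, the only one traced of 15 differentiation markers, was at 2.10. These markers also differed between arrays. The log2 fold changes of Prdm14 with FGFR, MEK and GSK inhibitor were 0.60, 0.10 and -0.16, and those of Gbx2 were -0.98, -0.22 and -0.22. Tcfcp2l1 was above the control with all 3 inhibitors, by 0.42, 0.40 and 0.41 beside robust SDs of 0.20, 0.15 and 0.23, and so was Fn1, by 0.40, 0.38 and 0.36. Col3a1 was at -0.16, -0.25 and -0.08, Sox17 at -0.17, 0.11 and -0.37, and the stress gene Bax at 0.06, 0.00 and -0.24. The part of these differences in the results below was not tested.

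Cells copy their DNA in S phase and divide it in mitosis, and both steps are driven by kinases whose activity depends on cyclins. In G1 the origin recognition complex and its partners load the MCM helicase onto origins, and Cdc7 and cyclin-dependent kinases then fire them. In mitosis Plk1 and the Aurora kinases build the spindle, the Bub proteins delay anaphase until chromosomes are attached, and the anaphase-promoting complex ends mitosis by marking cyclins for destruction. ES cells are known for a short G1 phase and for replicating and dividing quickly.

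Transcription of many replication genes is known to be controlled by E2F factors, and that of many mitotic genes through the element called CHR. Promoters were taken from RefSeq (build GRCm38.p6), as windows from 250 bases before to 50 bases after each gene start, and 51 members had at least 1 such window under their present symbol. The E2F site was searched as TTTCCCGC, TTTCGCGC, TTTGCCGC or TTTGGCGC on both strands. It was found in 8 of the 51 members (15.7%) and in 2.6% of all 27025 genes with a window. Of the 8 members with roles in licensing and origins, 5 held it: Mcm3, Mcm6, Mcm7, Mcm8 and Orc3l. The others were Rfc3 of the clamp loader, the centromere gene Cenpl and the kinesin Kif15. CHR, searched as TTTGAA on both strands, was found in 10 of the 51 members (19.6%) and in 20.2% of all genes. The members with it were the mitotic genes Bub1b, Bub3, Plk1, Cenpa, Cenpl, Kif14, Kif15 and Kif23, the origin kinase Cdc7 and the neuronal kinesin Kif1a. The only CHR match in Kif14 and in Cenpl and 1 of those in Kif15 lie far from the start, at -228, -162 and -234. Bub3 and Cdc7 have more than 1 window with a match, at -167 and -43 in Bub3 and at -237 and 3 in Cdc7. CCAAT was found on either strand in 28 of the 51 members (54.9%) and in 41.1% of all genes. CHR and E2F windows can be the same: Cenpl and Kif15 held both, and in Kif15 the CHR match at -19 follows the E2F match at -27 directly.

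The promoters below are shown because their E2F matches lie before the gene start, so that readers can see the sites beside the values that follow. Each runs over the 250 bases before the start, 5′ to 3′ on the strand of the gene, with the E2F matches in capitals. Counted back from the start, the matches begin at -110, -106 and -47 in Mcm6, where the first pair overlap. They begin at -165 in Mcm7, at -41 in Orc3l, at -108 and -33 in Cenpl, at -27 in Kif15 and at -10 in Rfc3. In Mcm3 and Mcm8 the matches begin only after the start, and Mcm7 and Rfc3 have a further one there.
Mcm6, chr1:128359706-128359955, minus strand: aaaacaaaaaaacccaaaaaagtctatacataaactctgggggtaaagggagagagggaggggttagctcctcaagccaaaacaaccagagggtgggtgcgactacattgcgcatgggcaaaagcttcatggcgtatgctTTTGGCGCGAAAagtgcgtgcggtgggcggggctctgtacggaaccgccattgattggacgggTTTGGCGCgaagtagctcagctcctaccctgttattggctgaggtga
Mcm7, chr5:138171884-138172133, minus strand: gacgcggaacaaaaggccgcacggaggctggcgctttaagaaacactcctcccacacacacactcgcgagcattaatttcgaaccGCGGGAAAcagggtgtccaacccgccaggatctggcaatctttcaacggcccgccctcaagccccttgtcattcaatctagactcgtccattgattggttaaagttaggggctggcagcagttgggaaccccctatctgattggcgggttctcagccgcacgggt
Orc3l (now Orc3), chr4:34614943-34615192, minus strand: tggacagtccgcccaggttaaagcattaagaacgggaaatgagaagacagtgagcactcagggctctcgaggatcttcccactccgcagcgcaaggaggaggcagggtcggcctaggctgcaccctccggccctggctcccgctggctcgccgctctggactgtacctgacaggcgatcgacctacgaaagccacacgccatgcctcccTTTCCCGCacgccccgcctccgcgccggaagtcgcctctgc
Cenpl, chr1:161070517-161070766, plus strand: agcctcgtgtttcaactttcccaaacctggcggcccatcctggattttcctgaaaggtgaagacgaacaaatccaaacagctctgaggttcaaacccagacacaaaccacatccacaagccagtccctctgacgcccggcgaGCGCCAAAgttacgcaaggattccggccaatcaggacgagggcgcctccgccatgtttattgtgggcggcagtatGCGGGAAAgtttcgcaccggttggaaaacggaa
Kif15, chr9:122950831-122951080, plus strand: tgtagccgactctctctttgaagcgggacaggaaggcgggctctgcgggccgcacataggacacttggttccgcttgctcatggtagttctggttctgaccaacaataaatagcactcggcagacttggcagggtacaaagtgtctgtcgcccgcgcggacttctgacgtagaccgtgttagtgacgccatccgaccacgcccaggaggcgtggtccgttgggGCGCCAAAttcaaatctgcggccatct
Rfc3, chr5:151651209-151651458, minus strand: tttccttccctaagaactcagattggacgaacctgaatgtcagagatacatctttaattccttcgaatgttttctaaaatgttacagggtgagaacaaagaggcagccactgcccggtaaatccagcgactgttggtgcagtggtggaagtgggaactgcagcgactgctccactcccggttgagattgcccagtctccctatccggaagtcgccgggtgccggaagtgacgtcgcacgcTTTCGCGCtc

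Few of the 62 members passed a threshold with any of the inhibitors. No member reached 2-fold in any comparison. Of all genes with Cy3 above background on both arrays, 1.39%, 0.0832% and 1.43% did so under FGFR, MEK and GSK inhibition. The genes so tested numbered 16794, 16834 and 16465. Of the genes named by the table of transcription factor response, 0%, 0% and 0.0502% reached 2-fold. Beside shares this low, a count of 0 among 62 does not set the members apart. At 1.5-fold, a log2 fold change of 0.58 in size, 1 member fell with FGFR inhibitor (Cdk5r2), none passed with MEK inhibitor and 1 fell with GSK inhibitor (Rad18). The shares of members past 1.5-fold were thus 1.61%, 0% and 1.61%, beside 5.7%, 1.05% and 6.54% of all genes. Neither of the 2 is a core cell cycle gene. Cdk5r2 is a neuronal activator of Cdk5, and Rad18 is a ubiquitin ligase that acts when replication meets DNA damage.

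These low counts have to be read against how the probes were named. Among the 1994 genes named by the table of transcription factor response, 0.15%, 0.0502% and 1.1% passed 1.5-fold under FGFR, MEK and GSK inhibition, also less often than all genes. With FGFR and GSK inhibitor the share of members, 1 gene in each, was above that of these genes. Of the 5 values of members past 2 robust SD, 2 are from Cdk5r2, which that table does not name. By that rule 1 member passed with FGFR inhibitor and 1 with MEK inhibitor (Cdk5r2 in both), and 3 passed with GSK inhibitor (Rad18, Mcm8 and Poldip3). These are 1.61%, 1.61% and 4.84% of the members. Of all genes 10.7%, 7.91% and 9.09% passed it, and 0.802%, 1.76% and 2.01% of the genes named by that table did. Of the 54 members that it names, 0, 0 and 3 passed, the last of which is 5.56%.

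The median log2 fold change of the 62 members was -0.02, -0.03 and -0.03 under FGFR, MEK and GSK inhibition, beside -0.02, -0.01 and 0.00 for all genes. The members spread a little less than all genes, with a robust SD of 0.18, 0.14 and 0.19 against 0.20, 0.16 and 0.24. For the genes named by the table of transcription factor response it was 0.15, 0.13 and 0.21, lower than for the members with FGFR and MEK inhibitor. With FGFR inhibitor 24 members lay above the control and 38 below, with MEK inhibitor 27 above and 35 below, and with GSK inhibitor 30 above and 32 below. Below the control thus lay 61.3%, 56.5% and 51.6% of the members, beside 54%, 52.7% and 50.6% of all genes. Many of these signs depend on the scaling: when arrays were centred on their median without loess, 12 of the 38, 28 of the 35 and 9 of the 32 members below the control under FGFR, MEK and GSK inhibition came to lie above it. A difference within 0.2 of the control on the log2 scale was found for 51, 54 and 41 members under FGFR, MEK and GSK inhibition. These are 82.3%, 87.1% and 66.1% of the members, beside 65.6%, 76% and 58.9% of all genes and 80.6%, 87.3% and 67% of the genes named by the table of transcription factor response. The spot error of the members had a median of 0.31 in each comparison. Each member's own spot error was exceeded by Cdk5r2 and Anapc1 with FGFR inhibitor, and by Poldip3 with MEK inhibitor. With GSK inhibitor it was exceeded by 5 members, Bub3, Kif15, Mcm8, Poldip3 and Rad18. These are 3.23%, 1.61% and 8.06% of the members, beside 13.9%, 5.04% and 17.9% of all genes and 4.81%, 1.86% and 13.4% of the genes named by the table of transcription factor response. In a bulk sample, a change in the share of cells in a cycle phase and a change in RNA per cell cannot be told apart.

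**Figure D1:**
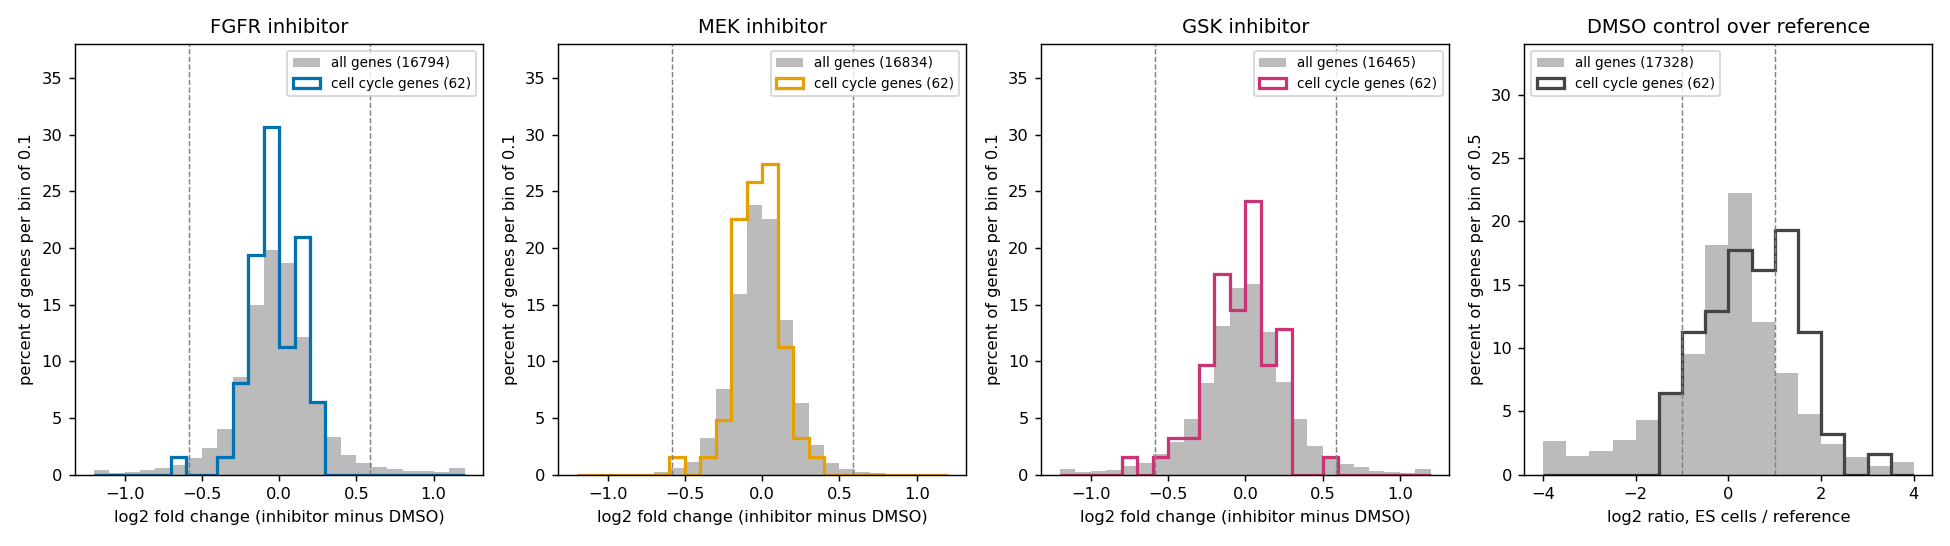
Distribution of the log2 fold change (x axis, bins of 0.1) with each inhibitor, and of the log2 ratio of the control ES cells to the reference (last panel, bins of 0.5), as percent of genes (y axis), for all genes above background (grey) and the 62 members (outline, labeled cell cycle genes). The outermost bins also hold all genes beyond them, and dashed lines mark 1.5-fold, or 2-fold in the last panel. The members stayed near 0 with each inhibitor, and 22 of them were at least 2-fold above the reference.

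Across the 4 arrays the members differed from each other far more than the arrays did. From its lowest to its highest array a member covered a median log2 range of 0.22, from 0.06 for the flattest to 0.72 for Rad18, and the median over all 16225 genes above background on all arrays was 0.28. The control array was the highest of the 4 for 23 members and the lowest for 14, beside 28.6% and 24.2% of all genes. The array with GSK inhibitor was the highest for 19 and the lowest for 22, beside 31.4% and 28.7% of all genes. The array with MEK inhibitor was the highest for 9 and the lowest for 13, beside 16.5% and 19.1% of all genes, and the array with FGFR inhibitor for 11 and 13, beside 23.5% and 28%. By the same counts, all 3 inhibitor arrays lay above the control for 14 members and below it for 23, and all 3 are compared with that same control array.

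**Figure D2:**
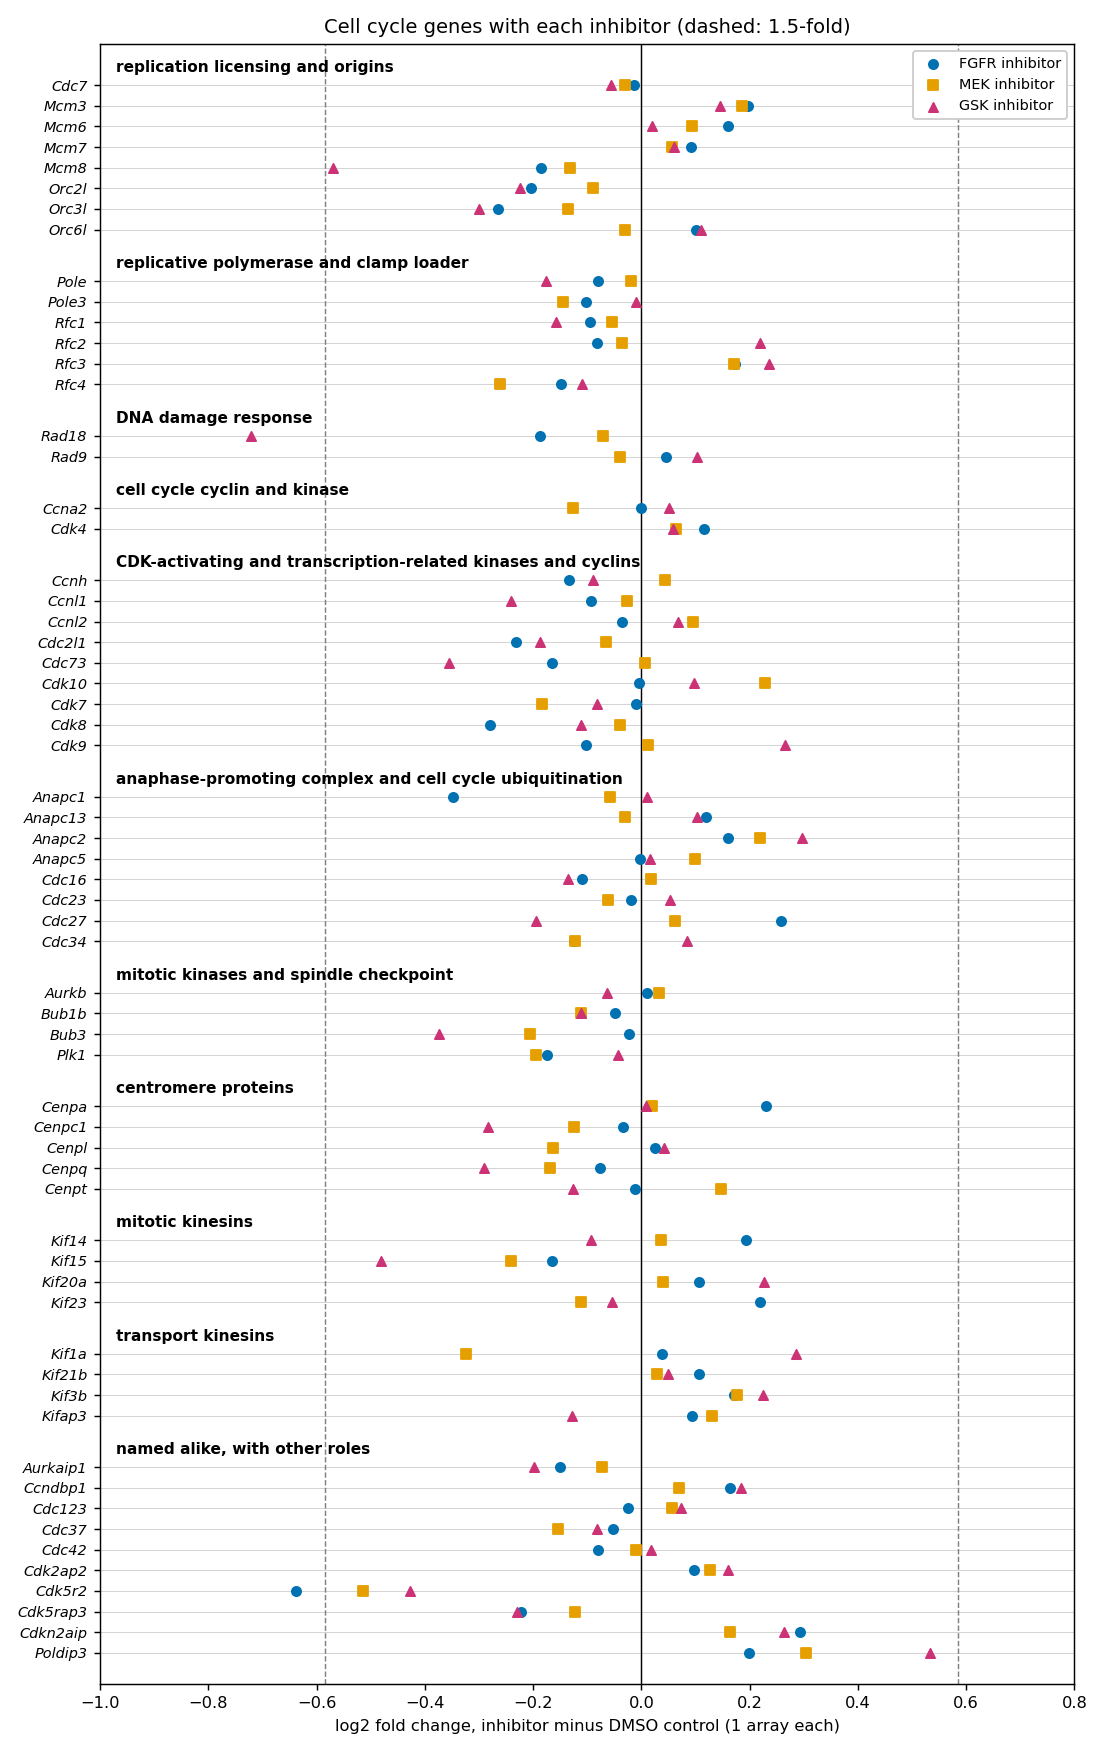
Log2 fold change of each of the 62 members (rows, grouped by role) with FGFR (circles), MEK (squares) and GSK (triangles) inhibitor against the DMSO control (x axis), 1 array each, with dashed lines at 1.5-fold. Only Cdk5r2 with FGFR inhibitor and Rad18 with GSK inhibitor lie past a dashed line, and most symbols lie within 0.2 of 0.

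Genes that license and fire replication origins were measured by 8 probes. Mcm3, a subunit of the replicative helicase, had log2 ratios to the reference of 0.76 in the control and 0.96, 0.95 and 0.91 under FGFR, MEK and GSK inhibition. The log2 ratio of Mcm6, another subunit, was 1.17 (control), 1.33 (FGFR inhibitor), 1.26 (MEK inhibitor) and 1.19 (GSK inhibitor), and that of Mcm7 was 1.68 in the control and 1.77, 1.74 and 1.74 under FGFR, MEK and GSK inhibition. The control was the lowest of the 4 arrays for all 3 subunits, by at most 0.20 on the log2 scale, which is within the robust SD of similar genes in 8 of the 9 differences and within the spot error in all 9. This direction held under the alternative settings, except that in Cy3 alone Mcm6 with GSK inhibitor was at -0.09. Cdc7, the kinase that fires origins, was flat, at 0.17 (control), 0.15 (FGFR inhibitor), 0.14 (MEK inhibitor) and 0.11 (GSK inhibitor).

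Mcm8, a helicase of the same family that is known for a role in recombination repair, stood apart from the other Mcm genes. Its log2 ratio was 1.45 in the control and 1.27, 1.32 and 0.88 under FGFR, MEK and GSK inhibition. The array with GSK inhibitor was the lowest, and the other 3 lay close together. The log2 fold change with GSK inhibitor was -0.57 (67.3% of the control), just short of 1.5-fold, with a robust SD of 0.27 and a spot error of 0.34. The reference signal of this spot was 4526 with DMSO and 5085 with GSK inhibitor in processed units, and in Cy3 alone the difference was -0.44. The origin recognition subunits Orc2l and Orc3l, which mark origins, were lower than the control on all 3 inhibitor arrays. Their log2 fold changes with FGFR, MEK and GSK inhibitor were -0.20, -0.09 and -0.22 for Orc2l and -0.26, -0.14 and -0.30 for Orc3l, and the values with MEK inhibitor turned to 0.10 and 0.05 when arrays were centred on their median without loess. Orc6l, another subunit, differed from the control by at most 0.11. The median of the 8 genes was 0.04, -0.03 and -0.02, and 0.10, 0.15 and 0.07 after median centring.

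The replicative polymerase and its clamp loader gave smaller differences. Pole encodes the catalytic subunit of the leading strand polymerase and Pole3 an accessory subunit, while Rfc1 to Rfc4 load the sliding clamp. With FGFR inhibitor 5 of these 6 genes lay below the control, with a median of -0.09, and with MEK inhibitor 5 of 6, with a median of -0.05, although only 1 of 6 lay below it there after median centring. The exception in both was Rfc3, at 0.17, 0.17 and 0.24 with FGFR, MEK and GSK inhibitor. Rfc2 had the widest range of the group, with log2 ratios of 0.15 (control), 0.07 (FGFR inhibitor), 0.12 (MEK inhibitor) and 0.37 (GSK inhibitor); only the array with GSK inhibitor stood above the rest. Rfc4 was lowest with MEK inhibitor, with log2 ratios of 0.26 in the control and 0.11, 0.00 and 0.15 under FGFR, MEK and GSK inhibition. None of these differences exceeded the spot error.

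Rad18 gave the widest range of all members. Its log2 ratio was -0.01 (control), -0.20 (FGFR inhibitor), -0.08 (MEK inhibitor) and -0.73 (GSK inhibitor). On the array with GSK inhibitor it was well below the other 3 arrays, of which the control was the highest. The log2 fold change with GSK inhibitor was -0.72 (60.7% of the control), 2.45 times the robust SD of 0.29, and the spot error was 0.29. Its processed Cy3 signal was 2816, 2833, 3306 and 1845 with DMSO, FGFR, MEK and GSK inhibitor, while the reference signal at the same spot ran from 2546 to 3068 and did not fall on the array with GSK inhibitor. Rad9, a subunit of the checkpoint clamp, differed from the control by at most 0.10.

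Of the cyclins and kinases that drive the cycle itself, only Ccna2 and Cdk4 were among the members, and both were flat. No cyclin of type B, D or E was among the members, and no Cdk1, Cdk2, Cdk6, E2f or Chek gene, so nothing can be said of these. Ccna2, the cyclin of S phase and entry into mitosis, had log2 ratios of 1.32 in the control and 1.32, 1.20 and 1.38 under FGFR, MEK and GSK inhibition. Cdk4, the kinase of G1, had 0.63 (control), 0.74 (FGFR inhibitor), 0.69 (MEK inhibitor) and 0.68 (GSK inhibitor). The largest difference from the control was -0.13, for Ccna2 with MEK inhibitor, and it lies within the robust SD.

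Cyclins and kinases that activate CDKs or act on transcription formed a group of 9. Ccnh and Cdk7 make up the CDK-activating kinase, which is also part of a general transcription factor; Cdk8 belongs to Mediator, Cdk9 releases paused polymerase, and Cdc73 belongs to the PAF complex of elongation. With FGFR inhibitor all 9 lay below the control, from -0.28 for Cdk8 to 0.00 for Cdk10, with a median of -0.10, and none was past 2 robust SD. Under the other settings 6 to 8 of the 9 lay below it. With GSK inhibitor 6 of 9 lay below it, with Cdc73 lowest at -0.36, and Cdk9 was highest at 0.27. The median there was -0.09, and after median centring 4 of 9 lay below the control and the median was 0.01. The log2 ratio of Cdk9 was -0.02 in the control and -0.13, -0.01 and 0.24 under FGFR, MEK and GSK inhibition, so that it was highest with GSK inhibitor and the other 3 arrays were close. Cdk8 was at 0.52 (control), 0.24 (FGFR inhibitor), 0.48 (MEK inhibitor) and 0.41 (GSK inhibitor), highest with DMSO. Cdk10, a kinase linked to transcription, was at 0.04 in the control and 0.04, 0.27 and 0.14 under FGFR, MEK and GSK inhibition, highest with MEK inhibitor.

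The anaphase-promoting complex was represented by Anapc1, Anapc2, Anapc5, Anapc13, Cdc16, Cdc23 and Cdc27, with Cdc34, a ubiquitin-conjugating enzyme of the G1 to S transition, beside them. Their medians were -0.01, -0.01 and 0.03 under FGFR, MEK and GSK inhibition, or 0.04, 0.14 and 0.12 after median centring, and subunits of the complex differed in sign. Anapc1, its scaffold, had log2 ratios of -1.14 (control), -1.49 (FGFR inhibitor), -1.20 (MEK inhibitor) and -1.13 (GSK inhibitor). It was lowest with FGFR inhibitor, by -0.35, just past its spot error of 0.34. Anapc2, the cullin subunit, was at -0.74 in the control and -0.58, -0.52 and -0.44 under FGFR, MEK and GSK inhibition, with the control the lowest of the 4. Cdc27 was at 0.31 (control), 0.56 (FGFR inhibitor), 0.37 (MEK inhibitor) and 0.11 (GSK inhibitor), highest with FGFR inhibitor and lowest with GSK inhibitor.

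**Figure D3:**
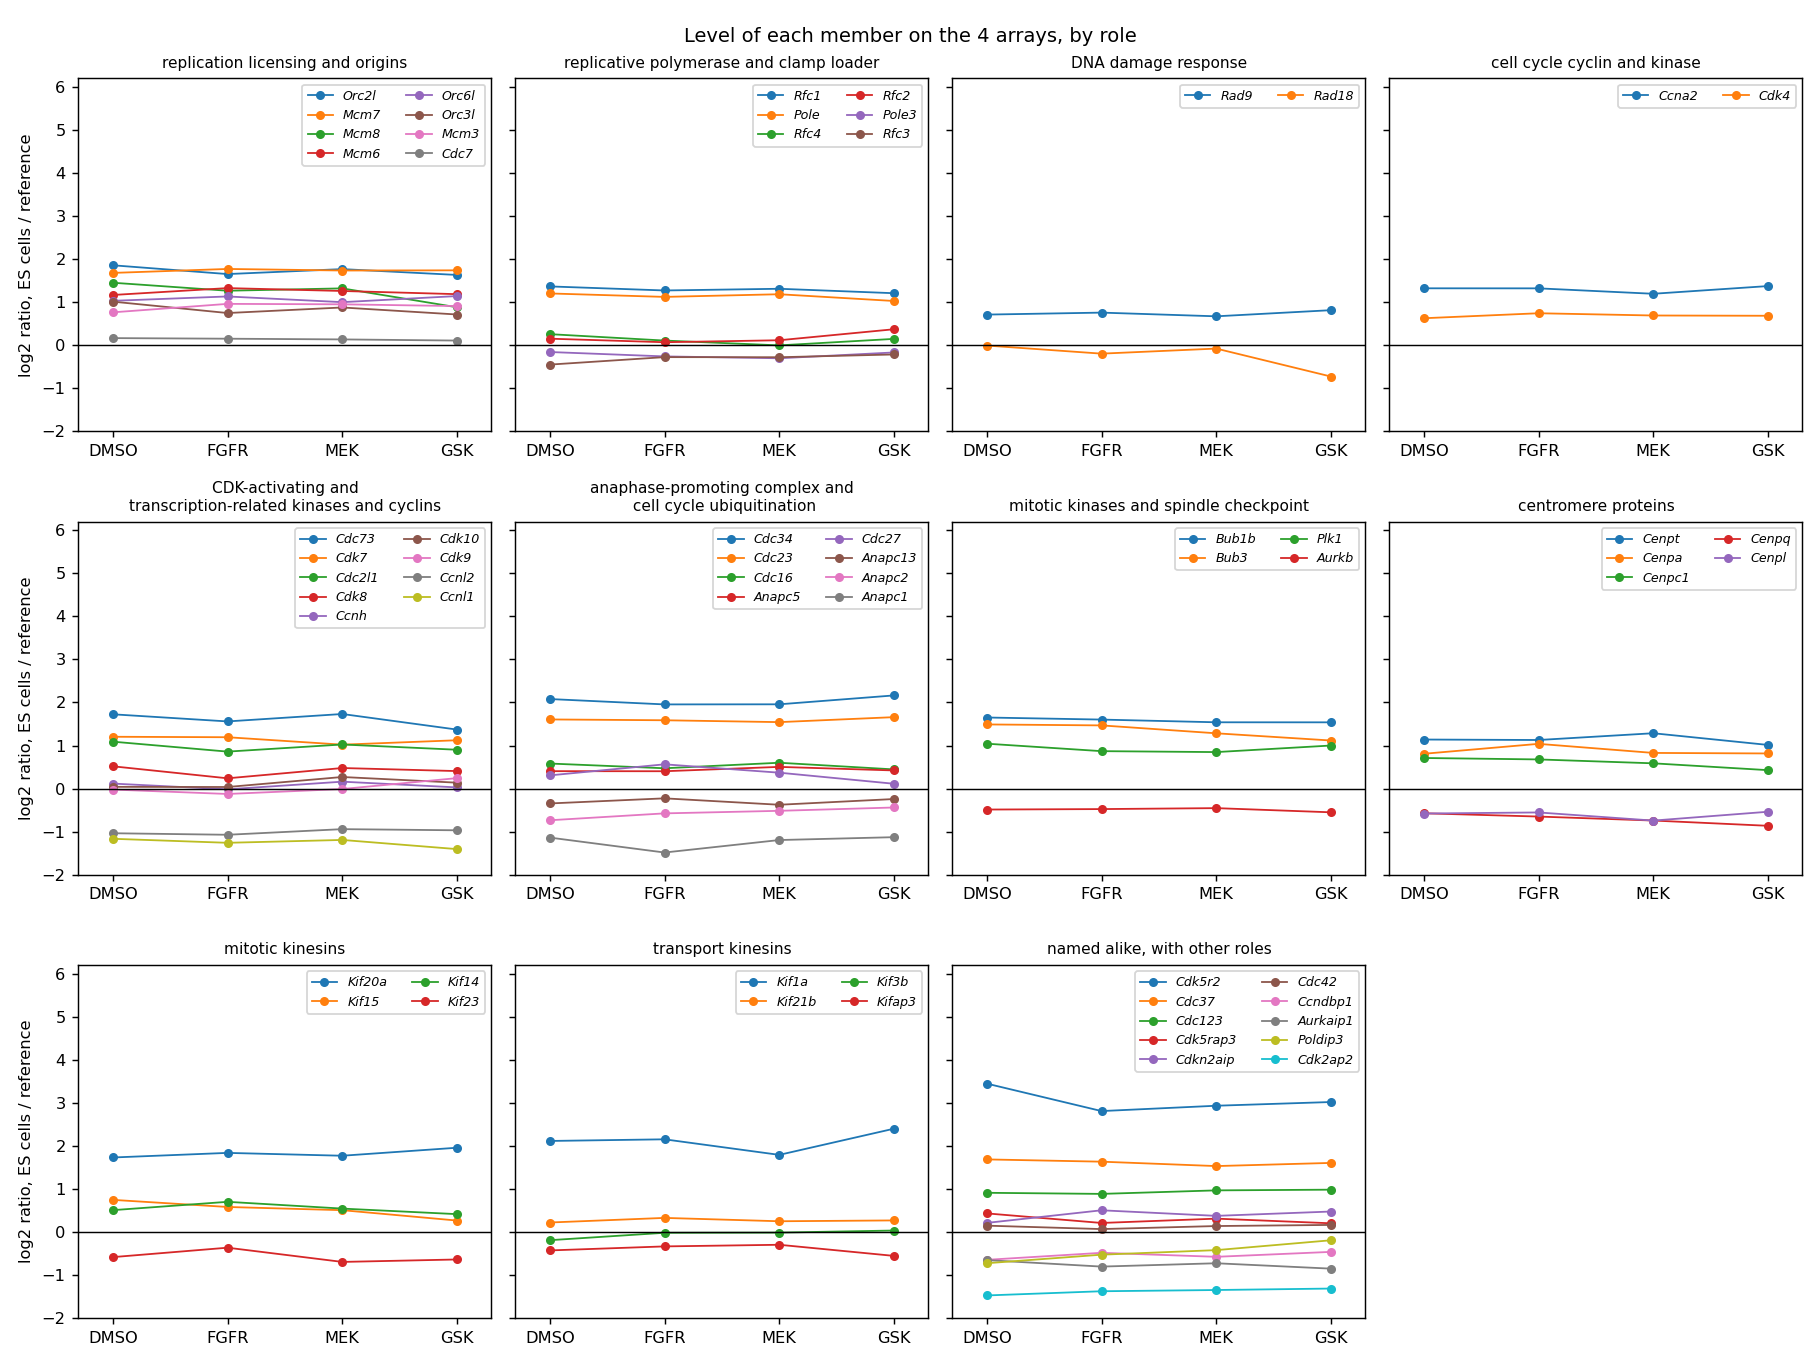
Log2 ratio of ES cells to the reference (y axis) for each member on the DMSO, FGFR, MEK and GSK inhibitor arrays (x axis), 1 panel per role and 1 line per gene. The lines are nearly level; Rad18 on the array with GSK inhibitor and Cdk5r2, highest with DMSO, show the widest steps.

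Mitotic kinases and spindle checkpoint genes were measured by 4 probes. Plk1, which acts from mitotic entry to cytokinesis, had log2 ratios of 1.04 in the control and 0.87, 0.85 and 1.00 under FGFR, MEK and GSK inhibition, with DMSO and GSK inhibitor above the other arrays. Aurkb, the kinase that corrects faulty attachments, was at -0.49 (control), -0.48 (FGFR inhibitor), -0.46 (MEK inhibitor) and -0.55 (GSK inhibitor). Bub1b, a core checkpoint protein, was at 1.65 in the control and 1.60, 1.54 and 1.54 under FGFR, MEK and GSK inhibition. None of these 3 differed from the control by more than 0.20. Bub3, the partner of the Bub kinases, had the widest range of the group, at 1.49 (control), 1.47 (FGFR inhibitor), 1.28 (MEK inhibitor) and 1.12 (GSK inhibitor). It was lowest with GSK inhibitor, at a log2 fold change of -0.37 with a robust SD of 0.28 and a spot error of 0.35. With GSK inhibitor all 4 genes lay below the control, with a median of -0.09, and with MEK inhibitor 3 of 4, with a median of -0.15. In Cy3 alone and after median centring, 2 of 4 lay below the control with GSK inhibitor, and after median centring also 2 of 4 with MEK inhibitor, where the median turned to 0.03.

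Centromere proteins build the base on which kinetochores assemble. Cenpa, the histone that marks centromeres, had log2 ratios of 0.81 in the control and 1.04, 0.83 and 0.82 under FGFR, MEK and GSK inhibition, highest with FGFR inhibitor. Cenpq, a subunit of the inner kinetochore, was at -0.57 (control), -0.65 (FGFR inhibitor), -0.74 (MEK inhibitor) and -0.87 (GSK inhibitor), below the control on every inhibitor array, although with MEK inhibitor the difference turned to 0.02 after median centring and with FGFR inhibitor to 0.02 in Cy3 alone. The medians of the 5 genes were -0.01, -0.12 and -0.13 with FGFR, MEK and GSK inhibitor, and 0.05, 0.02 and -0.02 after median centring.

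Mitotic kinesins move chromosomes and spindle fibres. Kif15, which helps hold the spindle poles apart, had log2 ratios of 0.74 in the control and 0.58, 0.50 and 0.26 under FGFR, MEK and GSK inhibition, and the control was the highest of the 4. With GSK inhibitor the log2 fold change was -0.48 (71.6% of the control), 1 of the 3 lowest values of all members there, with a robust SD of 0.30 and a spot error of 0.31. Its processed Cy3 signal went from 1972 with DMSO to 1626 with GSK inhibitor, and the reference signal of the spot went the other way, from 991 to 1162. In Cy3 alone the difference was -0.28. The probe of Kif15 is shown as an example of what the array measured; its position in the transcript is not given in the files, which mark all probes as unmapped: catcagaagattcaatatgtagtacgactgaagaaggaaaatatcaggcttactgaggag. Kif14, Kif20a and Kif23, all needed for cytokinesis, lay between -0.11 and 0.23.

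The 4 transport kinesin genes are not mitotic and were included for their names. Kif1a, a neuronal motor, had log2 ratios of 2.11 (control), 2.15 (FGFR inhibitor), 1.79 (MEK inhibitor) and 2.40 (GSK inhibitor). It was lowest with MEK inhibitor and highest with GSK inhibitor, but its spot error was 0.55 to 0.60, and the reference signal at this spot was only 43.3 to 70.6. The ratio of processed signals put it at -0.73 with MEK inhibitor. Kif21b was the dimmest member, and its reference channel was well above background on the control array alone. Kif3b and Kifap3, both parts of the heterotrimeric kinesin, lay between -0.13 and 0.22.

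A further 10 members carry a matching symbol but have other roles. Among them, Cdk5r2 had log2 ratios of 3.44 in the control and 2.81, 2.93 and 3.02 under FGFR, MEK and GSK inhibition, with the control above every inhibitor array. The log2 fold changes were -0.64, -0.51 and -0.43 with FGFR, MEK and GSK inhibitor, or 64.2%, 70.0% and 74.3% of the control. The robust SD was 0.26, 0.16 and 0.27, and the spot error about 0.60 in each, with a reference signal at this spot of 191 to 211 over the arrays. Only the value with FGFR inhibitor was larger than the spot error. In Cy3 alone the differences were -0.76, -0.67 and -0.47, whereas with processed signals the value with FGFR inhibitor was -0.57 and missed 1.5-fold. All 3 rest on the same control spot. The probe of Cdk5r2 reads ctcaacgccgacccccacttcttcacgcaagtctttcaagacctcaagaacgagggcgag.

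Poldip3, named for binding a DNA polymerase and known for a role in mRNA export and translation, went the other way. Its log2 ratio was -0.73 (control), -0.53 (FGFR inhibitor), -0.42 (MEK inhibitor) and -0.20 (GSK inhibitor), with the control lowest and GSK inhibitor highest. The log2 fold change with GSK inhibitor was 0.53 (145% of the control), 2.37 times the robust SD of 0.23, with a spot error of 0.30, and median centring took it past 1.5-fold, to 0.62. Cdkn2aip, a binding partner of the tumor suppressor ARF, was at 0.21 in the control and 0.50, 0.37 and 0.47 under FGFR, MEK and GSK inhibition, with the control lowest. The remaining members of this group, such as Cdc42, a small GTPase of cell polarity, and Cdc37, a chaperone partner of kinases, lay between -0.23 and 0.18.

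**Figure D4:**
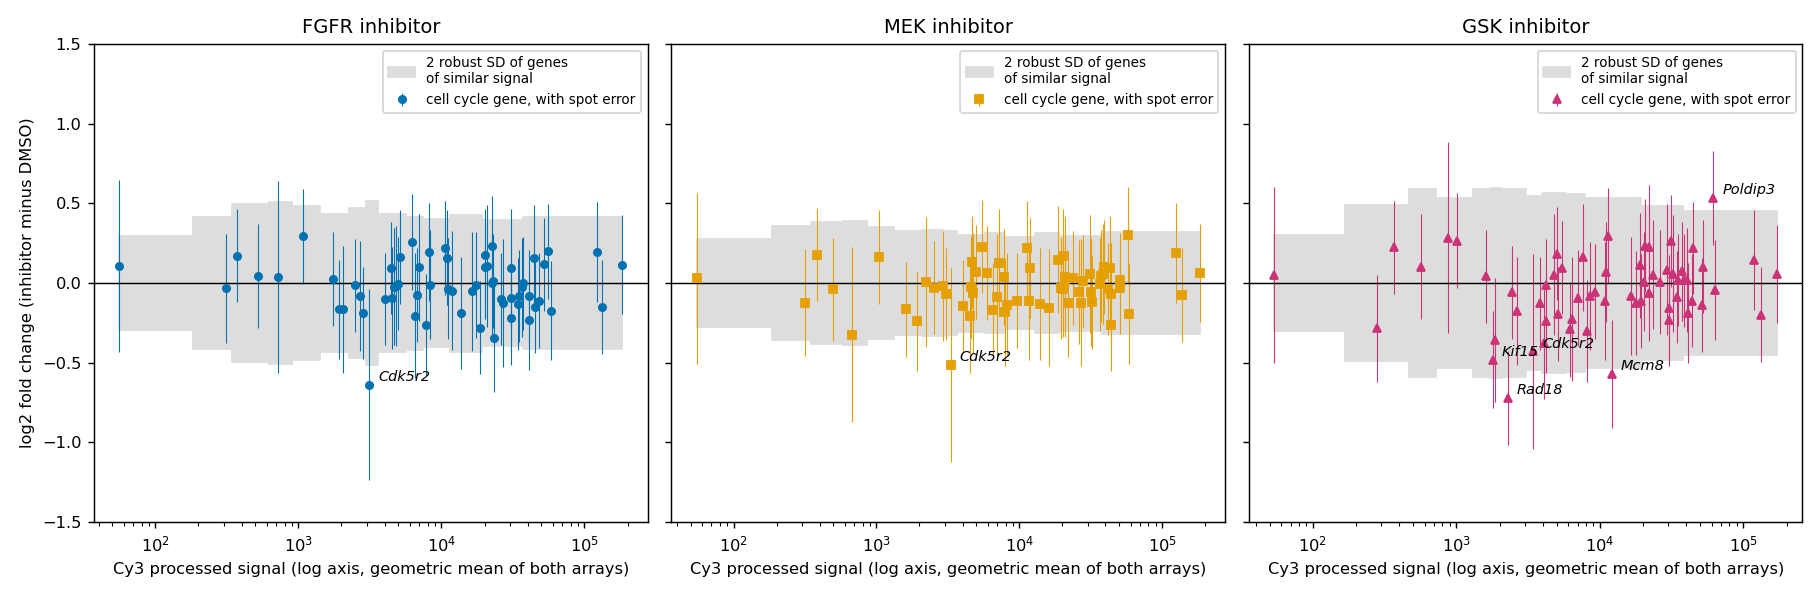
Log2 fold change of each member (y axis) against its Cy3 processed signal (x axis, log scale, geometric mean of the 2 arrays compared) with each inhibitor; bars are the spot error, and the grey band is 2 robust SD of all genes of similar signal. Named are members of at least 0.4 in size. Cdk5r2 lies outside the band with FGFR and MEK inhibitor, and Rad18, Mcm8 and Poldip3 with GSK inhibitor.

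Against the reference, the 62 members, those with other roles included, had a higher median ratio than all genes. The median log2 ratio of the members on the control array was 0.51, while that of all 17328 genes above background was 0.05, and 43 of 62 members were above the reference. At least 2-fold above it were 22 members, or 35.5%, beside 18.4% of all genes, and at least 2-fold below it were 4, or 6.45%, beside 19.7%. Of the genes named by the table of transcription factor response, 19.4% were at least 2-fold above and 8.73% below. The level against the reference depends on the centring: with median centring and no loess, the medians of the members and of all genes were 0.03 and -0.27. There 17.7% of the members and 10.6% of all genes were at least 2-fold above the reference, and 17.7% and 28.9% at least 2-fold below. Dyes were not exchanged, so a dye bias of single probes stays in these ratios, and they compare ES cells with a mixture that, per the methods of the study, also holds RNA of MC1 cells, a mouse ES line.

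With loess within arrays, the roles differed in how many of their genes were at the upper end. Of all genes, 52.7% were above the reference and 18.4% at least 2-fold above it. With median centring, 11 of the 62 members rather than 22 were at least 2-fold above, and the counts by role were not examined there. All 8 genes of licensing and origins were above the reference, with a median of 1.10, and 6 of them by at least 2-fold, led by Orc2l at 1.86 (3.63-fold) and Mcm7 at 1.68. Of the 4 mitotic kinase and checkpoint genes, Bub1b, Bub3 and Plk1 were 2-fold or more above it, with Bub1b at 1.65 (3.14-fold), whereas Aurkb was at -0.49. In the polymerase and clamp loader group 2 of 6 genes were 2-fold or more above the reference, and among the centromere proteins 1 of 5 and the mitotic kinesins 1 of 4. Kif20a was at 1.73 and Cdc34 at 2.08. The member farthest above was Cdk5r2 at 3.44 (10.9-fold), followed by the other neuronal gene, Kif1a, at 2.11, with a reference signal on the control array of 211 and 51.3 in processed units, well above background by the software's flag. These ratios depend on the processing: between median centring and processed signals, Cdk5r2 ran from 7.62-fold to 18.9-fold and Kif1a from 3.03-fold to 14.4-fold. The 4 members at least 2-fold below were Cdk2ap2 at -1.48, the cyclins L Ccnl1 and Ccnl2, which act in splicing, at -1.17 and -1.04, and Anapc1 at -1.14. On the arrays with FGFR, MEK and GSK inhibitor the median over the members was 0.53, 0.50 and 0.42.

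Other genes of the same processes were taken from lists drawn up by function. Of 15 further replication genes, 27 further mitosis genes and 11 further control genes, all 53 were above background on all arrays. The lists hold only genes whose probe could be named, 50 of the 53 by the table of transcription factor response, so they share the way in which the members were named. A low count among them is therefore no separate check on the members. None reached 2-fold. At 1.5-fold, 1 passed with FGFR inhibitor and 1 with GSK inhibitor, 1.89% in each, beside 5.7% and 6.54% of all genes and 0.15% and 1.1% of the genes named by that table. Sgol2, the protector of centromeric cohesion, was 0.68 higher with FGFR inhibitor on the log2 scale, with a robust SD of 0.21, and was at 0.15 and -0.18 with MEK and GSK inhibitor. Mybl1, a transcription factor of the Myb family, was lower by -0.68 with GSK inhibitor, with a robust SD of 0.32, and at -0.17 and -0.21 with FGFR and MEK inhibitor. The median of the 53 was 0.04, -0.02 and -0.01 with FGFR, MEK and GSK inhibitor. On the control array 12 of the 53 were at least 2-fold above the reference, with a median log2 ratio of 0.49.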

How the data were processed

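Cy3-labeled RNA of 4 ES cell cultures was hybridized beside a Cy5-labeled common reference to 4 arrays that share 1 slide, and samples were grouped by their labels. The authors deposited scanner output of Agilent Feature Extraction (9.5.1.1 per the file headers), with mean and background intensity per spot that is not normalized and intensity that the software had processed. A series table that the authors deposited gives log10 values of 25030 probes; 99.98% of its entries equal, within 0.001, log10 of processed Cy3 over Cy5 plus the mean log10 Cy5 signal. Background was corrected by normexp (offset 50, fitted on all spots) and log2 ratios by loess within arrays in limma 3.58.1 (R 4.3.3), leaving out control and outlier spots. A log2 fold change is the log2 Cy3/Cy5 ratio with inhibitor minus that with DMSO, and the offset draws dim genes toward 0. Genes were counted at 2-fold and 1.5-fold if the software flagged Cy3 as well above background on each of the arrays compared. The robust SD was taken in 20 groups of similar Cy3 signal; the spot error combines the log10 ratio errors of the deposited files. With 1 array per condition no test was made, and the number of arrays limits the precision. Steps were tested on simulated data. Summaries and figures used Python 3.11.15, numpy 2.4.6, pandas 2.3.3 and matplotlib 3.10.9.

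Symbols came from 5 supplementary tables held in part; 57 are current in RefSeq and 5 were updated by synonym. Members and lists were chosen with earlier results of these data known. Named with all 4 values are members past 1.5-fold, the 3 highest and 3 lowest per inhibitor, the widest range in each of 11 roles, and Ccna2, Cdk4, Plk1, Aurkb, Bub1b, Mcm3, Mcm6, Mcm7 and Cdc7. Alternatives were an offset of 16, processed signals, median centring, Cy3 alone with quantile normalization, the deposited table, no filter, and a filter on both channels.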

Additional observations from a re-analysis of the deposited data

How the results depend on the processing

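No paired analysis was possible because only 1 array was hybridized per condition, so that no array could be left out and no slide effect fitted. No member reached 2-fold under any of the 7 alternatives. At 1.5-fold, the processed signals and the deposited log10 table gave 0 members with FGFR inhibitor, where Cdk5r2 was at -0.57, and 1 with MEK inhibitor, which was Kif1a at -0.73. Cy3 alone with quantile normalization also gave 1 with MEK inhibitor, Cdk5r2 at -0.67. Median centring gave 2 with GSK inhibitor, Rad18 at -0.64 and Poldip3 at 0.62. It raised the median of all genes by 0.11 with MEK inhibitor, to 0.10, and that of the members there to 0.13. Medians of the members stayed between -0.03 and 0.05 under the other alternatives. The median log2 ratio of the members to the reference on the control array, 0.51, became 0.47 with an offset of 16, 0.61 with processed signals and 0.03 with median centring. Counts over all genes moved more. With FGFR inhibitor, processed signals called 724 genes at 2-fold and 2149 at 1.5-fold, and the deposited log10 values 724 and 2150. With MEK inhibitor, an offset of 16 called 28 and 322, processed signals 260 and 1135, and the deposited log10 values 259 and 1136. With GSK inhibitor, processed signals called 766 and 2493, and the deposited log10 values 768 and 2495. The cause was not tested. Of the 81 changes of named members, an offset of 16 moved 0 by more than the robust SD, the processed signals 1, the deposited log10 values 1, Cy3 alone 2 and median centring 14; neither of the 2 called changes turned its sign. The precision is limited by 1 array per condition.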
